A study of Mus musculus with 16 samples.

Results

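Extracellular miRNAs of unirradiated HCT116 cells were described from 4 arrays, each made from the culture supernatant of 1 independent culture, out of 16 arrays in the series. The members were chosen by their titles, which give 0 Gy and a culture number from 1 to 4, and no measured value entered the choice. HCT116 is an established human colorectal carcinoma line. Per the labels, all cultures of the series, irradiated with X-rays at 2, 6 or 10 Gy or left at 0 Gy, were kept for 72 h in RPMI1640 with 10% fetal bovine serum. Small RNA was taken from the supernatant with ISOGEN, of which 100 ng were labelled with the dye Cy3. Although the organism field says mouse, HCT116 came from a human tumour and the probes are for human miRNAs, and values were read as such. They name neither a mock irradiation for 0 Gy nor a control of medium without cells, and no irradiated array is compared here. One line is a single model, and the supernatant also holds whatever the serum brought.

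MicroRNAs are RNAs of about the length of a siRNA that are cut from hairpin precursors, which can yield a mature strand from each side, named 5p and 3p. The bases that lead target recognition, the seed, lie near the 5′ end, so miRNAs that share a seed form a family with overlapping targets. Cells release miRNAs in vesicles, bound to Argonaute proteins, in lipoprotein particles and through cell death, and the mix outside a cell need not mirror the mix inside. In a supernatant, fewer releasing cells and less RNA released per cell cannot be told apart.

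Shown first are the seed groups with the most members detected in all cultures, since the results on them turn on members that differ by few bases. Only names matched by name to a mouse entry are counted in these groups. Names without such a match, among them the miR-320 family and miR-30d-5p, are left out, so the groups can lack members. The sequences are RefSeq entries of the same name in mouse (assembly GRCm38.p6), in which 391 of the 1205 human names had an entry (372 under the same name and 19 with an added letter a, as in miR-21a-5p). Whether each is identical to the human sequence was not checked here. Capitals mark the seed, bases 2 to 8 from the 5′ end. The members of the miR-17 seed group detected in all 4 cultures were 4 of 5 names.
miR-17-5p: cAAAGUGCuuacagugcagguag
miR-20a-5p: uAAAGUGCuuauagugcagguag
miR-93-5p: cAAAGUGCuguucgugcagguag
miR-106b-5p: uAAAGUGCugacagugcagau

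The let-7 seed group had 3 of 9 names detected in all 4 cultures, and let-7a-5p, detected in every culture but the third, is shown with them.
let-7b-5p: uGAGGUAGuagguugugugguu
let-7c-5p: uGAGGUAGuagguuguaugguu
let-7i-5p: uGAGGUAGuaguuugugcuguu
let-7a-5p: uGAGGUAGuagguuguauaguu

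The group of miR-25 and miR-92 had 3 of 6 names detected in all 4 cultures, and so had the miR-181 group with 3 of 4.
miR-25-3p: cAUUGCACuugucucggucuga
miR-92a-3p: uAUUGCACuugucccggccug
miR-92b-3p: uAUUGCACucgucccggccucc
miR-181a-5p: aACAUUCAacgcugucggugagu
miR-181b-5p: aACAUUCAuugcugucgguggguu
miR-181d-5p: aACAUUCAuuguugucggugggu

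The next sequences are those of 4 further miRNAs among the 10 that differed most between the cultures, followed by miR-762, a bright miRNA that was among the 10 that differed least.
miR-24-3p: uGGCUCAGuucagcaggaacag
miR-125b-5p: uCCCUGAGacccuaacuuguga
miR-29a-3p: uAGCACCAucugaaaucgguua
miR-200c-3p: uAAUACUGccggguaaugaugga
miR-762: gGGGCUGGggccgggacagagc
Probes for members as alike as miR-17-5p and miR-20a-5p, or let-7b-5p and let-7c-5p, can take up each other's RNA, so signals within a family are not independent.

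The array of culture 3 stood apart from the other 3 in its labelling controls, and the values of all 4 cultures are given in order below so that the others can be read alone. Counts and spreads that rest on it are given without it as well, where it moved them most. The spike-in dmr_285, an RNA added before labelling, had a mean signal of 959, 189, 0.900 and 493 in cultures 1 to 4, and dmr_31a had 520, 227, 2.64 and 354. All spots of both were well above background in cultures 1, 2 and 4 and 0% were in culture 3. The spike-ins added at hybridisation were bright on all 4 arrays, with dmr_3 between 17187 and 22654. The scanner software rated the labelling as in range in cultures 1 and 4 and the hybridisation as in range in all 4. The 75th percentile of the log2 signal was 8.44, 9.20, 9.08 and 8.66, so culture 3 was not a dim array, and the background median was 36 on the first 3 arrays and 37 on the fourth. All 4 arrays lay on 1 slide, with cultures 3 and 4 in its second row. The part of the missing spike-ins in the results was not tested.

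Most human names on the array were not detected in the supernatant. Cultures 1 to 4 had 352, 412, 376 and 373 of 1205 human names detected, a mean of 378 ± 24.9 (SD, n = 4), or 31.4% ± 2.07 of the names. Culture 2 was the highest and culture 1 the lowest. In all 4 cultures 313 names were detected, 26.0% of those on the array, and this is the share against which each family is read below. In 0 of 4 cultures 766 names were detected (63.6%), and 126 were detected in 1 to 3. When over 0.5 of a probe's spots had to be well above background, 267 names (22.2%) passed in all 4.

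The array also carries 142 names of viral miRNAs, and the labels mention no infection. Of these, 40 were detected in all 4 cultures (28.2%), beside 26.0% of the human names, and 24.6% and 22.2% passed the stricter rule. Summed signals above 100, as the mean of the 4 cultures, were reached by 10.6% of the viral names and 9.54% of the human names. The most intense was hsv2-miR-H10, named from a herpesvirus, with 13196, 20988, 27817 and 13609 in cultures 1 to 4. The share of names called detected was thus close in both sets, and the detection counts below describe signal on these arrays.

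The signal was concentrated in few names. The 10 most intense carried 57.6, 55.4, 63.9 and 57.7% of the summed human signal in cultures 1 to 4, and the first of them, miR-4281, carried 20.03, 17.9, 25.3 and 20.8%. Culture 3 was the highest in both shares. Levels below are log2 of the signal after division by each array's 75th percentile, for the 267 of 313 names with at least 1 probe above background on all 4 arrays, and their order across miRNAs is one of signal, not of amount.

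The miRNA miR-4281 stood at 6.71, 6.47, 7.34 and 6.82 in cultures 1 to 4, a mean of 6.84 ± 0.36 (SD, n = 4). Next came miR-762 at 5.83, 5.65, 5.88 and 5.74, with a mean of 5.78 ± 0.10. The mean level of miR-1225-5p was 4.74 ± 0.23, and those of miR-1207-5p and miR-1202 were 4.50 ± 0.27 and 4.17 ± 0.40. Those of miR-188-5p, miR-320c and miR-663a were 3.94 ± 0.31, 3.91 ± 0.59 and 3.49 ± 0.11, and miR-494-3p and miR-3665 followed at 3.46 ± 0.77 and 3.40 ± 0.19. Without culture 3 the SD was 0.18 for miR-4281, 0.07 for miR-1202, 0.14 for miR-320c and 0.47 for miR-494-3p, and it rose to 0.38 for miR-188-5p. The neighbours from miR-188-5p to miR-3665 did not differ beyond their spread. Of these 10, all but miR-320c are in a list of GC-rich or purine-rich names known as bright on arrays, drawn up with earlier results of these data known. The label of the list was not checked for each name, and the mouse entry of miR-494-3p has 45.5% GC. Of that list's 47 names 41 were detected in all 4 cultures.

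The cultures fell into 3 that agreed closely and culture 3. Over the 267 levels, Pearson's r was 0.98 between cultures 1 and 2, 0.99 between 1 and 4, and 0.99 between 2 and 4, and Spearman's rho was 0.95, 0.98 and 0.98. With culture 3, r was 0.90 with each of the others and rho was 0.81 with each. These correlations are across miRNAs measured on shared arrays and describe the arrays only. Between 3 and 14 miRNAs differed by over 1 log2 unit in a pair without culture 3, and between 49 and 52 in a pair with it. The median SD between the 4 cultures was 0.29, with a middle range of 0.20 to 0.47, and it was 0.19 without culture 3. An SD over 1 was found for 25 miRNAs with culture 3 and for 0 without it.

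**Figure D1:**
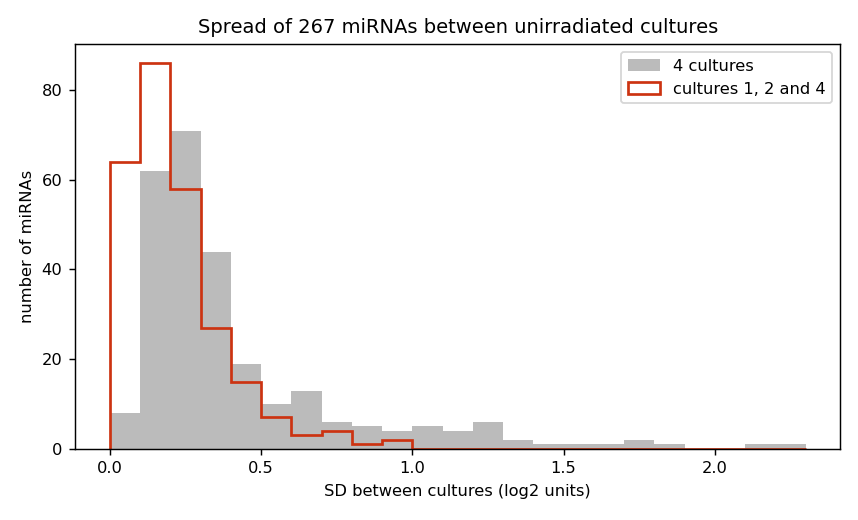
Histogram of the SD between cultures of each of 267 miRNA levels, in log2 units, over all 4 cultures (grey) and over cultures 1, 2 and 4 (red line). The grey distribution has a tail up to 2.24 that the red line, which ends at 0.98, does not have.

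Culture 3 was the lowest of the 4 for 89 miRNAs (33.3%), next to 88 for culture 2, and the highest for 130 (48.7%), next to 55 for culture 1. Counts of lowest and highest values include differences of any size and moved with the scaling, by which 60 to 93 miRNAs were lowest and 75 to 165 highest in culture 3. It lay over 1 log2 unit below the mean of the other cultures for 45 miRNAs, and over 1 above it for 8. In cultures 1, 2 and 4, each set against the mean of the remaining cultures, the count below was 0 and the count above was 15, 14 and 12. That mean includes culture 3, whose low values pull it down. This raises the counts above and can hide values below, so they are not a like measure for the 45. For culture 3 the count below was between 30 and 47 under the other settings, and the count above between 2 with normexp and 25 with the percentile over all human probes. All 45 stayed the lowest in culture 3 under the 7 other settings of scaling, background correction, signal and floor tried, and between 30 and 45 of them stayed over 1 unit below.

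The 45 were mostly names with low numbers and with an entry of the same name in mouse, which does not tell where their RNA came from. Of them 35 (77.8%) had an entry of the same name in mouse, against 52 of the 214 miRNAs within 1 unit and 0 of the 8 that were higher. By number, 38 of the 45 were let-7 or below miR-550, against 62 of the 214. The 8 that were higher were miR-1471, miR-198, miR-3131, miR-320c, miR-3667-5p, miR-3692-5p, miR-508-5p and miR-548q. In the other cultures the 45 were of middling signal, with a median level of -1.22, and the 214 had a median of -2.63.

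**Figure D2:**
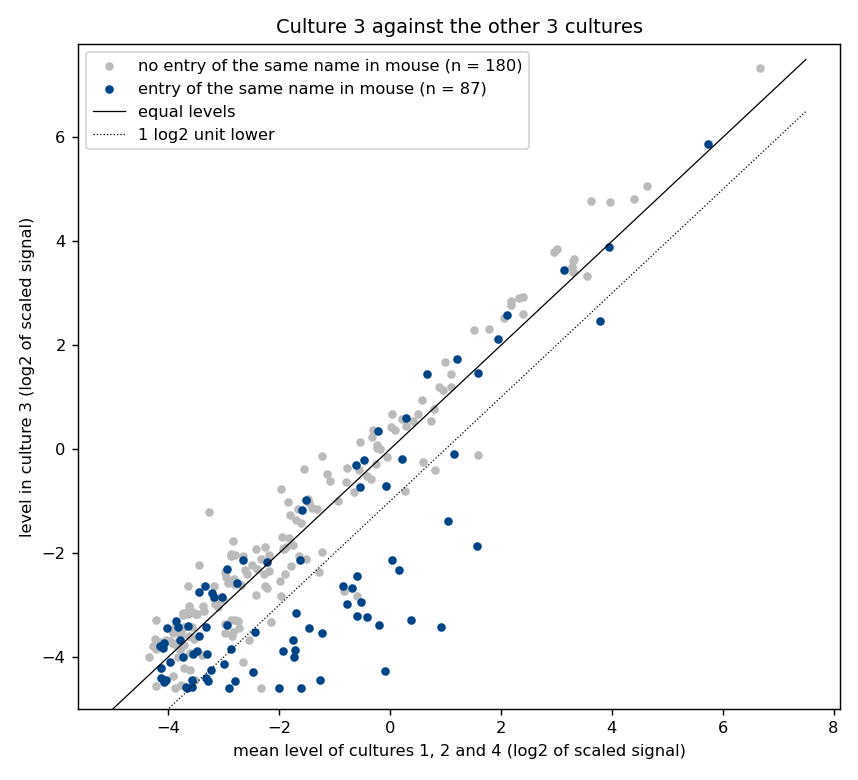
Level of each of 267 miRNAs in culture 3 (vertical axis, log2 of scaled signal) against its mean in cultures 1, 2 and 4 (horizontal axis), with miRNAs that have an entry of the same name in mouse in blue and the others in grey. Most grey points follow the line of equal levels, and 35 of the 45 points below the dotted line, which marks 1 log2 unit, are blue.

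The largest spread belonged to miR-24-3p, a product of the miR-23/27/24 clusters, at 0.65, -1.19, -4.28 and 0.28 in cultures 1 to 4. Its SD was 2.24, and 0.98 without culture 3, so that culture 2 was also below cultures 1 and 4. The level of miR-125b-5p, a relative of the lin-4 miRNA of worms, was 0.73, 0.91, -3.43 and 1.12. Cultures 1, 2 and 4 had an SD of 0.19 there, and culture 3 differed from their mean by -4.35. The level of miR-25-3p was 0.25, 0.48, -3.29 and 0.41, and that of miR-29a-3p, known to target collagen transcripts, was 1.40, 1.68, -1.87 and 1.63. Both were alike in 3 cultures and low in culture 3.

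Low in culture 3 as well was miR-34a-5p, a miRNA whose gene is activated by p53, at -2.16, -0.93, -4.44 and -0.71. The hypoxia-induced miR-210-3p stood at -0.95, -0.53, -3.22 and -0.31, and miR-100-5p at -0.48, -0.56, -3.23 and -0.22. For miR-425-5p and miR-31-5p culture 3 lay at the floor of -4.60, below which values have no order, against -1.14 to -1.96 and -1.82 to -2.23 in the other cultures. All 10 miRNAs with the largest SD had culture 3 as their lowest value.

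At the other end, miR-3917 had levels of -1.89, -1.98, -1.92 and -1.89, with an SD of 0.04. The red-cell miRNA miR-486-5p followed at -3.67, -3.81, -3.77 and -3.68, with an SD of 0.07. Also among the 10 steadiest were miR-3621, miR-769-3p, miR-3934-5p, miR-760, miR-3648, miR-3663-3p and miR-4306, with SDs between 0.07 and 0.10, and miR-762 with 0.10. For these the 4 cultures agreed, culture 3 included.

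**Figure D3:**
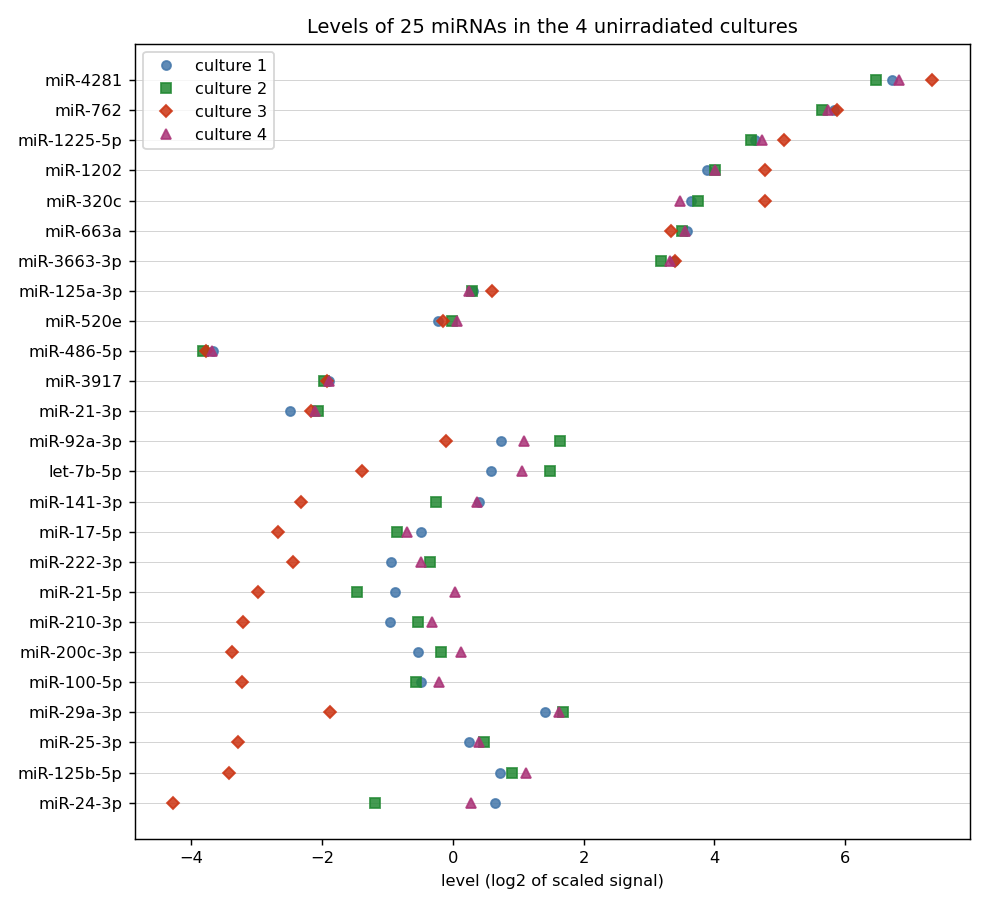
Levels (log2 of scaled signal) of 25 miRNAs in the 4 unirradiated cultures, 1 symbol per culture. From miR-92a-3p downward the red diamonds of culture 3 lie left of the other 3 cultures, and in the upper rows they lie among them or to their right, except for miR-663a, where they lie slightly left.

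The miR-200 family represses ZEB1 and ZEB2 and marks epithelial cells. Of its 9 names 3 were detected in all 4 cultures (33.3%), near the 26.0% of all human and 28.2% of viral names, and 2 more in every culture but the third. The level of miR-141-3p was 0.40, -0.26, -2.33 and 0.36 in cultures 1 to 4, and that of miR-200c-3p was -0.53, -0.17, -3.38 and 0.12. Without culture 3 their means were 0.17 ± 0.37 and -0.20 ± 0.33 (SD, n = 3). Agilent's summed signal, unscaled between arrays and with 0.1 for an undetected miRNA, was 26.9, 55.1, 6.00 and 47.3 for miR-200b-3p. It was 11.1, 12.6, 0.1 and 12.1 for miR-200a-3p, and 20.8, 37.9, 0.1 and 35.5 for miR-429. All 5 of these members were seen in cultures 1, 2 and 4, and all 5 were weakest or undetected in culture 3.

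The miRNAs enriched in intestinal epithelium were not. Of 5 names of miR-192, miR-194 and miR-215, 0 were detected in all cultures. The single name with any call, miR-194-3p, was detected in cultures 2 and 3 at summed signals of 2.77 and 2.76. With 5 names and a share of 26.0% over all names, this count says little of the list.

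The list of miRNAs raised in colorectal carcinoma takes in every strand of their hairpins on the array, passenger strands included. Of its 21 names 10 were detected in all 4 cultures (47.6%). The oncogenic miR-21-5p stood at -0.88, -1.46, -2.98 and 0.03, while miR-21-3p, the other strand of the same hairpin, was flat at -2.49, -2.07, -2.17 and -2.10. A like contrast was seen for the miR-183 hairpin, with miR-183-5p at -2.98, -2.10, -4.29 and -2.33 and miR-183-3p at -2.84, -2.69, -2.32 and -3.28. In both hairpins culture 3 was the lowest for the 5p strand and not for the 3p strand. Within the cluster that also holds miR-96 and miR-182, transcribed as 1 unit, none of the 4 names of the other hairpins was detected on any array. The summed signal of miR-135b-3p was 22.4, 22.3, 5.01 and 21.4, and miR-135b-5p was detected in no culture.

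The MYC-linked miR-17-92 cluster and its paralogs had 7 of 27 names detected in all cultures (25.9%), beside 26.0% of all names. Its most intense member, miR-92a-3p, stood at 0.73, 1.64, -0.10 and 1.09. The levels of miR-17-5p were -0.48, -0.85, -2.67 and -0.70, and those of miR-93-5p were -1.15, -1.87, -3.44 and -1.36. Culture 3 was the lowest for all 3. Summed signals were 32.6, 34.1, 5.55 and 34.4 for miR-20a-5p and 70.7, 44.5, 4.76 and 87.1 for miR-106b-5p. The strand miR-19b-3p, which carries another seed of the same cluster and is known as its main oncogenic part, had 164, 144, 0.1 and 270, so an ample signal in 3 cultures was undetected in the third. The same pattern was seen for miR-19a-3p at 15.5, 8.03, 0.1 and 26.2. In contrast, miR-18b-3p was highest in culture 3, at -3.62, -4.11, -3.31 and -3.84, though not with normexp. Faint in all cultures was miR-92b-3p, which shares the seed of miR-25-3p, with a mean level of -4.15. Its levels were -3.69, -4.17, -4.45 and -4.28, with culture 3 the lowest.

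Of the let-7 family, which restrains growth and marks differentiated cells, 6 of 18 names were detected in all cultures (33.3%). The mature 5p strands were the most intense, with let-7b-5p at 0.58, 1.49, -1.39 and 1.07. For let-7c-5p the levels were -0.93, 0.00, -2.94 and -0.63, and for let-7i-5p they were -2.34, -1.01, -3.68 and -1.89. Culture 2 was the highest and culture 3 the lowest for all 3. The opposite strands did not follow a single order. Values of let-7b-3p were -3.90, -4.30, -3.74 and -4.04, those of let-7f-1-3p were -3.93, -4.43, -3.78 and -4.12, and those of let-7d-3p were -2.82, -2.64, -3.84 and -3.17. For let-7b-3p and let-7f-1-3p culture 3 was the highest by these values, and with normexp background correction it fell below the mean of the others.

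Other 5p members of let-7 were detected in part of the cultures or in none. Summed signals of let-7a-5p were 11.7, 31.9, 0.1 and 20.5. Both let-7f-5p and let-7g-5p were detected in cultures 2 and 4 alone, let-7d-5p in culture 1 alone, and let-7e-5p in none. The miR-99/100 and miR-125 families, which lie beside let-7 genes, had 5 of 11 names in all cultures (45.5%). Of these miR-125a-3p, a passenger strand, was 0.30, 0.30, 0.60 and 0.25 and so highest in culture 3. The strand miR-99b-3p stood at -3.46, -3.28, -3.42 and -3.24, alike in all 4, and miR-99b-5p had summed signals of 21.0, 46.3, 12.9 and 26.6.

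The miR-23/27/24 clusters had 5 of 11 names in all cultures (45.5%). Next to miR-24-3p above, miR-23a-3p was at -1.21, -0.68, -2.64 and -0.66, and miR-27a-3p at -0.69, -1.63, -3.53 and -1.35. The paralog miR-27b-3p was lower, at -2.88, -2.56, -4.47 and -2.96. All 4 were lowest in culture 3. The passenger miR-23a-5p had summed signals of 2.45, 12.5, 13.3 and 6.87, with culture 3 the highest. Of miR-221 and miR-222, which repress the cell-cycle inhibitor CDKN1B, the 3p strands were detected in all cultures. Levels were -0.95, -0.35, -2.45 and -0.49 for miR-222-3p and -1.89, -1.34, -3.86 and -1.90 for miR-221-3p.

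In several widely expressed families, members were undetected in culture 3 alone. Of 8 names of miR-26, miR-103a and miR-107, 0 were detected in all 4 cultures, but miR-26a-5p (29.3, 19.6, 0.1 and 27.4), miR-103a-3p (13.2, 8.85, 0.1 and 13.9) and miR-107 (8.52, 6.73, 0.1 and 10.0) were detected in the other 3. The cell-cycle family miR-15/16 had 1 of 14 names in all 4, miR-195-3p at a mean of -4.20 ± 0.21. Its members miR-15b-5p (60.0, 89.1, 0.1 and 72.5) and miR-16-5p (12.04, 17.2, 0.1 and 20.3) were again missing in culture 3. So was miR-29c-3p, at 29.8, 60.6, 0.1 and 41.7. In the miR-30 family, with 4 of 11 names in all cultures, miR-30d-5p was the most intense at 0.46, 0.71, -0.24 and 0.62, and miR-30c-1-3p was highest in culture 3, at -1.59, -1.48, -0.98 and -1.49.

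The miR-181 family, known from lymphocyte development, had 3 of 7 names in all cultures. Levels of miR-181a-5p were -2.14, -1.78, -3.89 and -1.87 and those of miR-181b-5p were -3.54, -2.98, -4.25 and -3.18, both lowest in culture 3. The summed signal of miR-181d-5p, which is not scaled between arrays, was 12.5, 24.9, 13.3 and 18.8. Culture 1 also had a lower 75th percentile than culture 3 (8.44 against 9.08), so these values do not give the order of the cultures in level. In another widely expressed family, miR-148b-3p was at -2.53, -2.08, -3.51 and -2.70, and miR-148a-3p was detected in cultures 2 and 4 alone, with 41.8 in culture 2.

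Over all human names, 28 were detected in every culture but the third, 11 in every culture but the first, 6 in every culture but the fourth and 0 in every culture but the second. The reverse also occurred, with 21 names detected in culture 3 alone, 10 in culture 2 alone, 3 in culture 1 alone and 2 in culture 4 alone. Of the 28 names missing in culture 3 alone, 15 had an entry of the same name in mouse, and of the 21 found there alone 3 had one. Cultures 2 and 3, the arrays with the highest 75th percentiles, shared 25 names seen in neither of the others. Without culture 3, 341 names were detected in all cultures in place of 313, and 141 names of the lists in place of 124. The count rose from 3 to 5 for the miR-200 family, from 0 to 3 for miR-26 with miR-103a and miR-107, from 1 to 3 for miR-15/16 and from 1 to 2 for miR-29.

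The miR-320 family is made without DROSHA, and all 5 of its names were detected in every culture. Its members differed in direction. In culture 3, miR-320c was 1.15 units above the mean of the others, at 3.64, 3.74, 4.77 and 3.47 in cultures 1 to 4. In contrast, miR-320d was 1.21 units below it, at 0.33, 1.23, -0.41 and 0.85, and miR-320e 1.09 units below, at -0.11, 0.66, -0.81 and 0.27. These 3 kept their direction under every scaling tried. The levels of miR-320a were 0.38, 0.62, 0.68 and 0.51, and those of miR-320b 0.34, 1.09, 0.53 and 0.81, with no culture apart.

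Names since traced to pieces of tRNA, snRNA or other non-coding RNA were detected almost throughout, with 10 of 11 in all 4 cultures. The most intense was miR-1246, a name matched by a fragment of the U2 spliceosomal RNA, at 1.75, 1.28, -0.12 and 1.72. The name miR-4286 stood at -0.30, -1.31, -2.74 and -0.90. The tRNA-derived miR-1274b_v16.0 was at -0.82, -1.83, -2.36 and -1.20, and miR-1274a_v16.0 at -1.74, -3.06, -4.60 and -2.21. For these 4 names culture 1 was the highest and culture 3 the lowest. The tRNA-derived miR-720_v18.0 was highest in culture 1 too, at 0.03, -0.78, -0.52 and -0.48, but was lowest in culture 2.

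Of the 39 GC-rich or purine-rich names with a level, 31 were highest in culture 3 and 3 lowest, beside 48.7% and 33.3% of all levels. Their median difference between culture 3 and the others was 0.32 log2 units, and that of all 267 miRNAs was 0.15. With quantile normalization both medians were 0.28, with 26 of the 39 highest and 7 lowest in culture 3, and under the other settings 27 to 35 were highest. Levels of miR-1202 were 3.89, 4.01, 4.77 and 4.00. Levels of miR-150-3p, the passenger strand of a lymphocyte miRNA, were 2.23, 1.82, 2.59 and 2.26. Among the 10 brightest, miR-494-3p was lowest in culture 3, at 4.18, 3.27, 2.46 and 3.92, as was miR-663a, at 3.58, 3.50, 3.33 and 3.56, while miR-188-5p was neither lowest nor highest there, at 3.53, 4.10, 3.90 and 4.24.

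The primate-specific chromosome 19 cluster, active in placenta, had 5 of 44 names in all cultures (11.4%) and 32 in none. Among these 5, miR-520b stood at 0.53, 0.90, 0.77 and 0.94 and miR-520e at -0.23, -0.01, -0.15 and 0.06, and miR-516a-5p at -2.89, -2.86, -2.06 and -2.86. The list for the imprinted 14q32 region had 9 of 69 names (13.0%) in all cultures and 57 in none. Among the 9 it counts miR-342-3p, whose place within the imprinted region was not checked. Apart from miR-494-3p the most intense names of the list were miR-134-5p at 1.64, 2.07, 2.13 and 2.14, and miR-370-3p at -2.85, -2.46, -2.13 and -2.64. Of the embryonic-stem-cell cluster miR-371-373, 2 of 5 names were detected, with miR-371a-5p at 0.00, 0.22, 0.68 and -0.13.

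Markers of other cell types were detected in shares below and above the 26.0% of all names, with 63.6% of all names detected in no culture. Of the red blood cell list (1 of 5 names in all cultures), miR-451a and both strands of miR-144 were detected in 0 of 4 cultures, and miR-486-5p in all. Of 10 white blood cell and platelet names, 2 were detected in all cultures, miR-150-3p above and miR-155-5p at a mean of -2.98 ± 0.16. The defining strands miR-142-3p, miR-142-5p, miR-150-5p and miR-146a-5p were detected in none, and miR-223-3p in culture 3 alone at 10.7. The liver miRNA miR-122-5p, common in serum, was detected in all with summed signals of 5.60, 16.3, 5.66 and 5.84.

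Of 8 muscle names 3 were detected in all cultures, of which miR-206 had a mean level of -3.54, miR-133b one of -4.16 and miR-133a-3p one of -3.82, while miR-1-3p, miR-208a-3p and miR-208b-3p were detected in none. Neuronal names were 0 of 15 in all cultures (1 without culture 3), with miR-9-5p and miR-124-3p in none. Of 15 stromal and endothelial names 2 were, miR-145-5p at -2.77, -2.09, -3.67 and -2.77 and miR-10b-3p at a mean of -3.16 ± 0.36. The strands miR-143-3p, miR-126-3p, miR-199a-3p, miR-199a-5p and miR-214-3p were detected in no culture. Whether the faint signals came from the serum, the cells or the probes was not tested.

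**Figure D4:**
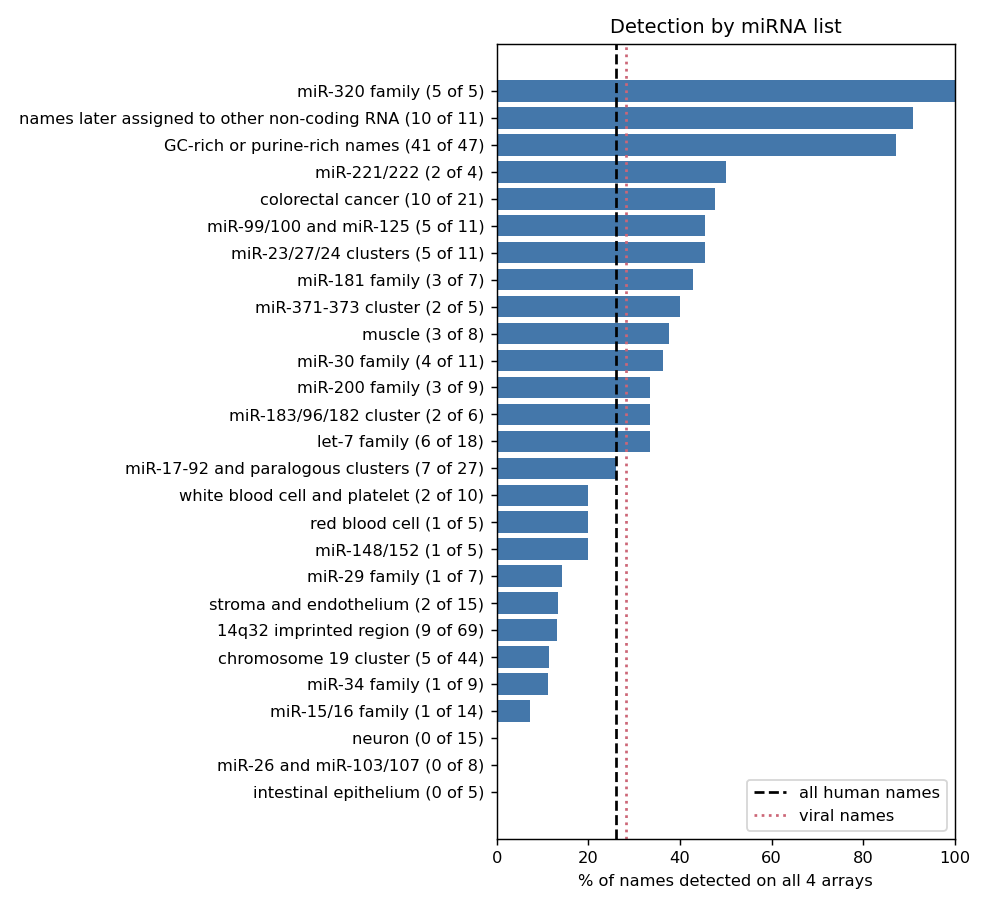
Share of the names in each list (lists with at least 4 names) that were detected on all 4 unirradiated arrays, in percent of the names, with the count beside each list. The dashed line marks all human names (26.0%) and the dotted line viral names (28.2%), and the bars run from 0 for neuronal and intestinal epithelial names to 100 for the miR-320 family.

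Of 246 hairpins with both strands on the array, 62 had the 5p strand and 61 the 3p strand detected in all cultures. Both were detected in 20 (25 without culture 3), 33 had the 5p strand in all cultures and the 3p strand in none, 35 had the reverse, and 100 had neither strand in any culture. By summed level the leading pairs were those of miR-1225, miR-3679, miR-21, let-7b, miR-1228, miR-877, miR-193b, miR-423, miR-769, miR-3180, miR-183 and miR-425. Within a hairpin the strands need not follow each other across cultures. The levels of miR-193b-3p were 0.18, 0.05, -2.14 and -0.15, and those of miR-193b-5p were -3.80, -3.27, -3.94 and -3.60, both lowest in culture 3. For miR-425, miR-425-3p was flat at -3.63, -4.05, -3.68 and -3.70 while miR-425-5p reached the floor in culture 3. Flat in both strands was miR-423, with mean levels of -0.59 ± 0.15 for miR-423-5p and -4.01 ± 0.16 for miR-423-3p.

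By position, hairpins within 10 kb of each other in the mouse reference formed 50 groups among the matched names. Of these 32 had a name detected in all 4 cultures (35 without culture 3) and 10 had none in any culture. The group of miR-23a, miR-27a and miR-24-2 led with 4 of its 6 names. Groups with 3 names were miR-17-92 (of 11), miR-106b, miR-93 and miR-25 (of 6), miR-191 and miR-425 (of 4), let-7c-2 and let-7b (of 3) and the 14q32 counterpart (of 35). In the mouse group of let-7c-2 and let-7b every name was detected. From the miR-191 hairpin the strand miR-191-5p was detected in no culture and miR-191-3p in all. Whether the human hairpins lie in the same groups was not checked. A comparison of base composition between detected and undetected names was void, because 32.4% of the human names had a sequence to read.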

How the data were processed

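Agilent's Feature Extraction 11.5.1.1 made each deposited file, which holds 1 single-colour miRNA array, per the file headers. The deposited intensities are the background-subtracted processed signal, median spot and background signals and a total signal per miRNA, unscaled between arrays, with detection flags, per the file headers. Of 56044 spots on an array 2164 were controls, and 0 were saturated. Control spots and outlier spots (3.84 to 4.11%) were left out and spots of a probe averaged.

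The signal was divided by each array's 75th percentile over the 518 probes detected on all 16 arrays, floored at 0.0412 and turned into log2 values from the deposited intensities. A miRNA's level was the mean over its probes detected on all 4 arrays (556 probes, with 0.854% of values at the floor). Detection was the scanner software's flag per miRNA. The number of arrays, 4, limits the precision. No test was run, since there is 1 group.

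Members and the 29 lists (391 names) were chosen with earlier results of these data known. Of 255 name stems, those with no name on the array were miR-371b, miR-519a, miR-526a, miR-527, miR-3960, miR-1308, miR-1975, miR-1977, miR-1979 and miR-219. Over the lists 124 names (31.7%) were detected in all cultures. The miR-148/152 list had 1 of 5 names in all cultures and the miR-34 list 1 of 9. Named were the 10 brightest, the 10 smallest and 10 largest SDs, list members (up to 6 by level, and up to 4 detected in part), 12 hairpins with both strands, the leading seed groups and neighbour groups, and markers of other cells. Others, such as the 8 miRNAs higher in culture 3, were chosen after their values were seen. Alternatives were the detection rule, each culture left out, other scalings, total signal, normexp (limma 3.58.1, R 4.3.3) and no floor. Tables and figures used Python 3.11.15, pandas 2.3.3, numpy 2.4.6 and matplotlib 3.10.9, and the scripts were tested on simulated data.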

Additional observations from a re-analysis of the deposited data

Results flagged for a closer look

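Of 131 groups of 4 values examined, 20 had 1 culture far from the other 3, and 16 of the 20 were culture 3. Chance flags about 1 in 20 groups, but that rate does not apply here, since the groups include miRNAs named for their spread between these cultures and lists that share members. Far below the others in culture 3 were the levels of miR-100-5p (-3.23), miR-125b-5p (-3.43), miR-17-5p (-2.67), miR-181a-5p (-3.89), miR-193b-3p (-2.14), miR-25-3p (-3.29), miR-29a-3p (-1.87), miR-31-5p (-4.60) and miR-342-3p (-4.60). So were the mean levels of the miR-200 family (-2.85), the colorectal cancer list (-2.80), the miR-17-92 and paralogous clusters (-2.56) and the miR-99/100 and miR-125 families (-2.37). Far above the others in culture 3 were miR-1202 (4.77), miR-125a-3p (0.60) and miR-516a-5p (-2.06). Elsewhere, miR-1225-3p was low in culture 2 (-2.84), and miR-134-5p (1.64) and miR-760 (-3.74) were low in culture 1. The background median of culture 4 was 37, against 36 in the other 3. The labelling spike-ins were absent from the array of culture 3, and their part in these values was not tested.

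Viral miRNA names, outside the human names described here, gave a signal too, with 40 of 142 detected on all 4 arrays. The highest value of the 99th percentile of the negative controls was 11.4, and the brightest probes of these 40 names lay between 11.2 and 57930. Their source was not tested.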

How the results depend on the processing

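The median SD between cultures was 0.466 without scaling, 0.370 with the 75th percentile over all human probes, 0.213 with normexp, and 0.186 to 0.335 with 1 culture left out. The share of miRNAs lowest in 1 culture was 61.4% without scaling (culture 1), 48.3% with normexp (culture 2), and 38.2 to 46.8% with 1 culture left out, where fewer cultures share the lowest place. Culture 3 led by the main setting, quantile normalization, total signal and no floor, culture 1 also by the percentile over all human probes, and culture 4 by that over probes detected on the 4 arrays. Leaving 1 culture out gave a lowest correlation of 0.898 to 0.976 and 77 to 118 names detected on some arrays, with 77 and 0.976 without culture 3. Otherwise the causes were not tested. The stricter detection rule gave 267 names in all cultures, 822 in none and 116 in some, with 14 hairpins, 28 neighbour groups and 111 list members, and leaving out 1 culture gave 313 to 341 names in all. Of the 10 brightest miRNAs 9 or 10 kept their place under every setting. The scalings shifted the median level by 0.34 to 8.85, so levels are relative to the chosen scale. No paired analysis was possible because there is 1 group. Signal over background limits faint names, and values at the floor have no order.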
